A study of Drosophila melanogaster with 2 samples.

Results

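Of the 8170 summits in the thresholded list of CG3032 binding sites (the IDR list, named for the irreproducible discovery rate, which ranks how well peaks repeat between replicates), 505 lay at or just inside the start of a protein-coding gene, on the transcribed side. A peak summit is the base at which a binding signal is highest. A summit was taken when its nearest protein-coding transcription start site (TSS) was at most 500 bp away and the summit was at the TSS or downstream of it in the direction of transcription. Summits between a minus-strand TSS on the left and a plus-strand TSS on the right, 50 to 500 bp apart, were left out, because such a summit belongs to a divergent promoter. This removed 90 of the 595 summits that lay downstream of their nearest TSS. The 505 summits made up 6.18% of all summits and 16.5% of the 3068 summits within 500 bp of a TSS (95% interval 15.2 to 17.8%). The other promoter summits were 1724 upstream of a single promoter and 839 between divergent starts, and 5102 summits were farther than 500 bp from any protein-coding TSS.

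The data are chromatin immunoprecipitation sequencing (ChIP-seq) peak lists from whole Drosophila melanogaster prepupae of 24 hours, with males and females pooled. All samples came from 1 transgenic line that stably expressed CG3032 with GFP (eGFP) at its C-terminus, and bound chromatin was precipitated with an anti-GFP antibody from fragments of 200 to 800 bp. There were 2 biological replicates, numbered 2 and 3, and no second genotype, stage or treatment (a control library exists, not analysed here). The signal averages over all cells of the animal and over both sexes, and the tagged protein came from an inserted copy, so the values describe the tagged protein. Peak lists hold no read counts, so the depth of the replicates is unknown, and the 95% intervals below cover counting error over summits or genes only; summits of 1 list are not replicates.

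A core promoter is the stretch of DNA around a TSS where RNA polymerase II and the general transcription factors assemble. In flies, developmental genes often carry a TATA box or an initiator, whereas genes active in most cells often carry the DNA replication-related element (DRE), which is bound by the factor Dref, or Motif 1. Most sequence-specific factors bind upstream of the start, in nucleosome-depleted DNA; sites downstream fall in the 5′ untranslated region (UTR), the first intron or the first coding bases, over which the polymerase passes.

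The DNA under the strongest downstream summits is printed first, because base composition around the summit is a main result below. Each line gives 29 bases centred on the summit, read in the direction of transcription on dm6 (assembly BDGP6), with the summit base in capitals. They come from the 20 strongest members that also had a summit within 100 bp in both replicates, of which 16 are shown.
PNPase (chr3R:31404646-31404674, minus strand): agaaacgtacagggCttttattgtaagat
CG9147 (chr2L:6066087-6066115, plus strand): gcagtagttcaaaaAttaagttaacaata
ph-p (chrX:2137913-2137941, minus strand): tatgtctattatatAattctattttacta
Cat (chr3L:18822901-18822929, plus strand): gccggcaggaaaatAagaaaacaagaaag
tank (chr2L:4837838-4837866, minus strand): gcactggcacagcgAtaagtatgtaagtt
hng3 (chr3L:738905-738933, minus strand): ttggaactaattaaAattatgataatttt
CG31612 (chr2L:21794949-21794977, minus strand): gttgatatggtaccTatgttttgtgagta
CG9399 (chr3R:9574136-9574164, minus strand): attatttttataatTgtgtaattgtatgt
CG43116 (chr3R:25996598-25996626, minus strand): aatttgcattacttTgctttaaaagcaat
CLIP-190 (chr2L:17385346-17385374, plus strand): tgagatagctgcctGcgcgccaaaataaa
CAH3 (chrX:8681376-8681404, plus strand): cttttagaagatccCttggccaaacaaat
hdly (chr3R:20914333-20914361, plus strand): gctgtatcgcgatcCgcgagaaaaacata
scramb2 (chr3L:3046423-3046451, minus strand): aaaagatattttatAatgtaccaaaaagt
Trmt6 (chr2L:6562175-6562203, minus strand): tatgggcagtaaatAatgtatttttggca
Fer2LCH (chr3R:30388420-30388448, plus strand): gaaaccctacattaTctccgaacccagca
puc (chr3R:8106479-8106507, plus strand): aaaaaaaaaatcagTcagtccaacaaaat

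The A+T share of these 29 bases ranged from 51.7% at CLIP-190, hdly and Fer2LCH to 86.2% at ph-p, hng3 and CG9399. The next set shows the members closest to a start. In these 3 sequences the summit lay exactly at the TSS, which is the base in capitals.
CG4497 (chr2L:7194574-7194602, minus strand): agctgattggagaaAaatcaagtgatctc
RpS7 (chr3R:30208934-30208962, minus strand): ctacgtcgtggctcGacttcctttcctgt
CG3061 (chr3R:14032357-14032385, plus strand): aagcatctctgctcGtgttttttgccttg

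The signals of the summits just inside and just outside the limits are given on the authors' scale. At the start, CG4497 (signal 827), RpS7, a protein of the small ribosomal subunit (286), and CG3061 (247) sat at 0 bp, whereas Dpck (236), Ccm3 (220) and CG3764 (214) sat 1 bp upstream and were not members. At the other limit, tay lay 500 bp downstream (1055), the start shared by Hsp22 and CG4456 at 498 bp (401) and step, which encodes an exchange factor for Arf GTPases, at 494 bp (191). The nearest summits past the window were at 505 bp in pinta (269), at 505 bp in COX7AL2 (221) and at 507 bp in Mtp (478).

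The 505 summits used 497 TSS positions of 502 genes, which is 3.59% of the 13968 protein-coding genes. Their median distance from the TSS was 92 bp (95% interval 78 to 106). Within 50 bp of the TSS lay 166 of them (32.9%), within 100 bp 263 (52.1%), and at 300 to 500 bp a further 97 (19.2%). By the annotation of their own transcripts, 363 (71.9%, 67.7 to 75.8%) were in the 5′ UTR, 123 (24.4%) in an intron, 18 (3.56%) in a coding exon and 1 in a 3′ UTR; for 23 the transcripts of the start differed. The annotated start codon was still ahead of 440 of the 505 summits. The number of summits fell steeply over the first 200 bp and then stayed low.

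**Figure D1:**
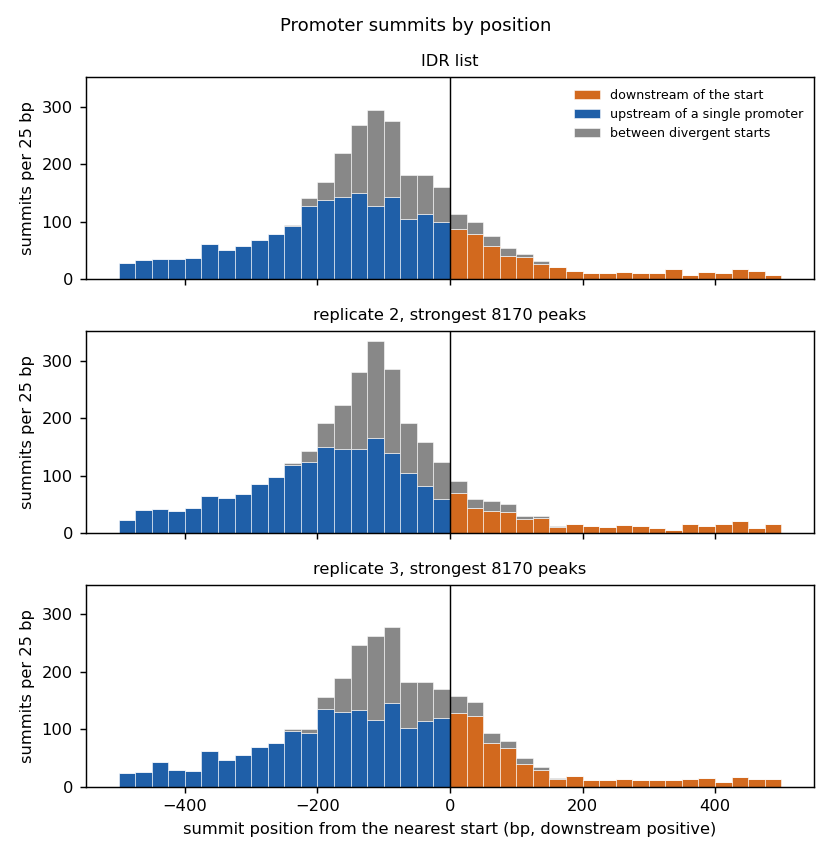
Number of promoter summits per 25 bp (vertical axis) against their position from the nearest protein-coding start (horizontal axis, bp, downstream positive), in the IDR list and in the strongest 8170 peaks of each replicate, coloured by class. Summits downstream of the start (orange) are most frequent in the first 50 bp, and replicate 3 holds more of them than replicate 2 (652 against 418).

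Downstream summits were spread over the genome in proportions that their counting intervals do not separate. They were 15.5% of the promoter summits on arm 2L, 18.0% on 2R, 15.3% on 3L, 15.4% on 3R, 18.9% on X and 10% on chromosome 4, the last from only 3 of 30 summits. Genes with a downstream summit were long: their median length was 4900 bp, against 5140 bp for genes with an upstream summit and 2164 bp for all protein-coding genes.

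Many of these summits sit in promoters with more than one feature nearby. A later annotated start of the same gene followed within 500 bp of the summit for 103 members (20.4%, 17.0 to 24.2%). The share was 12.1% with a TSS window of 1000 bp and 32.4% with divergent summits kept, and both moves are tied to the definitions. A summit more than 500 bp from any start cannot have one. A summit downstream of its start but between divergent starts always has another start ahead on the same strand, so leaving these out lowers the 20.4%. A start of another protein-coding gene followed within 500 bp for 3 members. A second IDR summit lay upstream of the same TSS for 50 members (9.90%). The peak interval covered the TSS for 323 members (64.0%). This was so for 162 of 166 within 50 bp (97.6%) and for 3 of 97 at 300 to 500 bp (3.09%). The median peak width was 396 bp (382 to 396), and 304 bp at 300 to 500 bp, so the distance largely fixes these shares. Among 16 genes with more than one downstream summit, 8 had both at the same start. Eip75B, an ecdysone-induced nuclear receptor gene, had them at different starts 28477 bp apart, 46 bp downstream of one (signal 1318) and 141 bp downstream of the other (301).

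The 20 strongest reproducible members had signals from 1445 to 5085. In all 20, the summits of both replicates lay downstream of the same TSS, which matching within 100 bp fixes for those at 100 bp or more. They were 11 summits in a 5′ UTR and 9 in an intron, with a median distance of 142.5 bp; 7 were at 300 bp or more and 2 under 50 bp. PNPase, which encodes the RNA-degrading polynucleotide phosphorylase, had the strongest one, at chr3R:31404660-31404660 on the minus strand. Its signal was 5085 in the IDR list (rank 10 of all 8170), 1484 in replicate 2 (rank 15) and 3600 in replicate 3 (rank 9), and both replicates placed the summit 81 bp downstream of the TSS. A later PNPase start is annotated 172 bp downstream of the first, so the summit lay between them.

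CG9147 followed with 3331, 14 bp from its start in the 5′ UTR. Replicate 2 gave it 924 at 9 bp and replicate 3 gave 2395 at 14 bp. CG8320 had 3091 at 100 bp in an intron, with 1060 in replicate 2 at 95 bp and 2037 in replicate 3 at 103 bp. Of these strong summits, CG9147 was the one closest to the TSS apart from puc, the phosphatase gene of the Jun kinase pathway, at 5 bp (signal 1445; 247 in replicate 2 and 1210 in replicate 3).

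Strong summits deep inside the transcript were found at ph-p and Cat. The summit of ph-p, which encodes the Polycomb protein polyhomeotic proximal, lay 444 bp downstream of the TSS in the 5′ UTR with a signal of 2991. Replicate 2 had 1235 at 440 bp and replicate 3 had 1809 at 436 bp. The 201 bp around it were 26.9% G+C. A stronger IDR summit with a signal of 4508 lay 601 bp farther along, inside the same peak interval of 1596 bp. Cat, the gene of catalase, which breaks down hydrogen peroxide, had its summit at 311 bp in an intron with 2924. Replicate 2 gave 551 at 326 bp and replicate 3 gave 2368 at 305 bp, ranks 300 and 43, so the replicates differed more in rank here than at ph-p (33 and 86).

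The remaining members of this set covered varied functions. In the 5′ UTR they were tank (147 bp, signal 2144), CG9399 (61 bp, 1827), GstE13, a glutathione S-transferase (76 bp, 1746), pnut, a septin (131 bp, 1741), CLIP-190, a microtubule plus-end protein (345 bp, 1694), CAH3, a carbonic anhydrase (138 bp, 1687), and hdly (51 bp, 1671). In introns they were hng3 (430 bp, 2040), CG31612 (484 bp, 2001), CG43116 (384 bp, 1799), the scramblase gene scramb2 (375 bp, 1590), grh, the epidermal transcription factor grainy head (184 bp, 1501), the tRNA methyltransferase gene Trmt6 (100 bp, 1486) and Fer2LCH, the ferritin light chain (158 bp, 1472). At CG43116 the second summit, 268 bp upstream of the TSS, was stronger than the downstream one (2107 against 1799), and at hng3 it was weaker (201 against 2040). None of the 20 had a DRE within 100 bp, where 32 of all 505 members did (6.34%), so none in 20 is near that share. The median G+C of the 20 was 34.1%.

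**Figure D2:**
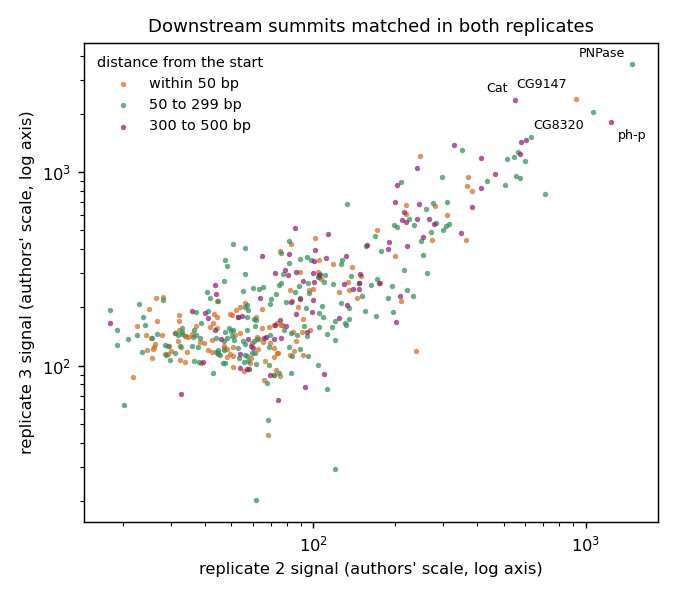
Signal of the 415 downstream summits that had a summit within 100 bp in both replicates, in replicate 2 (horizontal) and replicate 3 (vertical), on the authors' scale with log axes; each point is 1 summit, coloured by its distance from the start. The strongest members, led by PNPase at 1484 and 3600, are high in both replicates, and the scatter is wider at low signal.

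As a group, downstream summits were weaker than the other classes. Their median signal was 220 (95% interval 209 to 240), against 292 (280 to 310) upstream of a single promoter, 370 (346 to 402) between divergent starts, 303 away from promoters and 301 for all IDR summits. As a percentile within the IDR list, where 100 is the strongest, the medians were 30.4 (26.6 to 36.0) downstream, 48.1 (45.9 to 51.4) upstream and 59.4 (56.3 to 62.8) between divergent starts. Above the median signal of the list lay 174 of the 505 downstream summits (34.5%), 840 of 1724 upstream (48.7%) and 504 of 839 divergent ones (60.1%). Each replicate's own strongest 8170 peaks gave the same order: divergent summits had 63.7 (60.5 to 66.2) in replicate 2 and 58.3 (55.9 to 60.6) in replicate 3. The downstream median percentile was 34.2 (29.5 to 38.8) against 50.4 (48.7 to 52.7) upstream in replicate 2, and 28.9 (26.5 to 32.0) against 50.2 (47.2 to 52.4) in replicate 3. No test over summits was made.

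Signal depended on the distance from the start on both sides of it. Downstream, the median percentile was 19.8 (14.3 to 24.7) at 0 to 24 bp, 23.8 at 25 to 49 bp, 25.3 at 50 to 99 bp, 38.6 at 100 to 199 bp, 31.5 (12.4 to 50.9) at 200 to 299 bp and 60.5 (49.2 to 64.2) at 300 to 500 bp. Upstream, the same bands had 26.6 (22.1 to 34.2), 28.6, 34.1, 53.5, 61.3 (56.7 to 65.9) and 57.6 (53.1 to 63.4). The intervals of the 2 sides overlapped below 100 bp and at 300 to 500 bp and did not overlap from 100 to 299 bp, where they were also apart in each replicate's own list. In replicate 2 alone, the downstream percentile went from 22.7 (15.6 to 31.1) in the first 25 bp to 47.5 (36.1 to 57.1) at 300 to 500 bp, and in replicate 3 alone from 22.7 (19.3 to 26.7) to 55.0 (41.6 to 63.2).

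**Figure D3:**
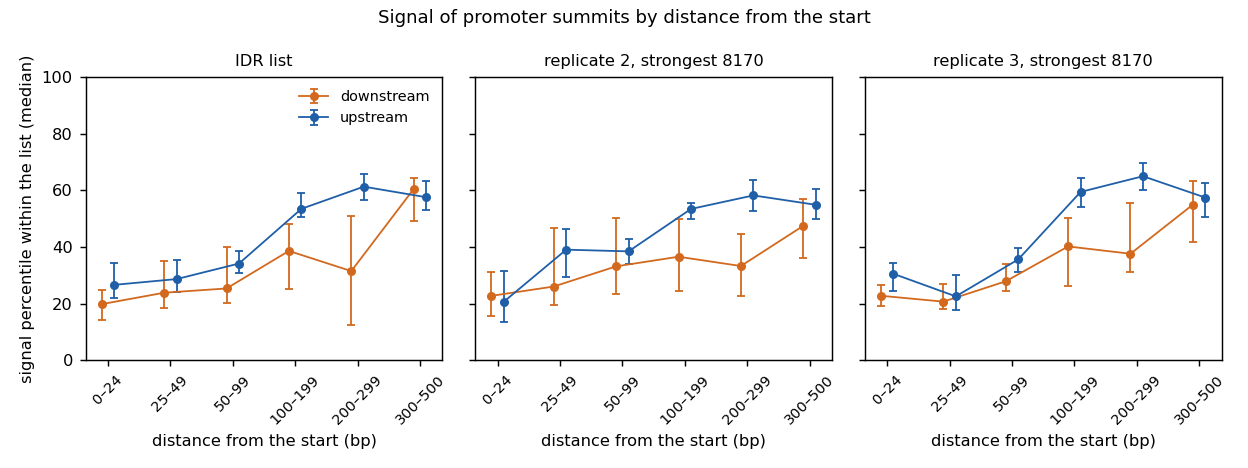
Median signal percentile within the list (vertical axis, 0 to 100) of summits downstream (orange) and upstream (blue) of the start, by distance from the start (horizontal axis, bp), in the IDR list and in the strongest 8170 peaks of each replicate; bars are 95% intervals of the median. Summits near the start are weak on both sides, and the sides are apart at 100 to 299 bp.

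The feature a summit lay in moved with its distance. Members in a 5′ UTR had a median signal of 205 at a median distance of 53 bp, members in an intron 303 (270 to 386) at 312 bp and members in a coding exon 197 (164 to 298) at 141.5 bp. Feature and distance cannot be told apart with these numbers, since 65 of the 97 summits at 300 to 500 bp (67.0%) were in an intron of all their transcripts.

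Over all distances, the DNA around downstream summits had a higher G+C content than around the other classes; the classes also differ in distance, by which the values are given next. The 201 bp centred on the summit had a median G+C content of 41.3% (40.3 to 42.3%) downstream, 33.8% (33.3 to 34.3%) upstream, 31.3% between divergent starts and 33.3% over all IDR summits. In replicate 2 alone the downstream value was 39.3% (37.8 to 40.3%) and in replicate 3 alone 42.8% (41.8 to 43.3%), against 32.8% and 34.3% upstream. Windows of the same length 500 bp away had a median of 40.3% on the upstream side and 46.3% on the downstream side of these summits.

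The G+C content was highest close to the start and lowest in the last band, on both sides of the start. Downstream, it was 43.5% (41.3 to 45.8%) at 0 to 24 bp, 44.8% at 25 to 49 bp, 42.3% at 50 to 99 bp, 40.3% at 100 to 199 bp, 39.8% at 200 to 299 bp and 35.8% (34.3 to 39.3%) at 300 to 500 bp. Upstream, the same bands had 43.0% (39.8 to 45.3%), 40.8% (38.3 to 42.3%), 38.3%, 32.8%, 31.3% and 31.3% (30.8 to 32.3%). The intervals of the 2 sides overlapped below 50 bp and did not from 100 bp on. Windows placed 12, 37, 74, 149, 249 and 400 bp downstream of all 19276 protein-coding starts had medians of 42.3, 43.3, 43.8, 44.8, 46.8 and 47.8%. Near the start the summits thus had the base composition of starts in general, and at 300 to 500 bp their median was 35.8% where the general value was 47.8%. Of the 97 members in that band 65 were in an intron, and the windows past all starts were not split by feature. Over all distances, members in an intron had a median of 35.8% (34.3 to 37.3%), in a 5′ UTR 42.3% and in a coding exon 48.3%. The part of the feature in the gap at 300 to 500 bp was not tested. The profile of G+C in 51-bp windows showed a dip at the summit for the distant members: it was 44.5% ± 1.22 (SEM, n = 97) 100 bp before the summit, 36.4% ± 1.28 at it, 34.1% ± 1.17 at 50 bp past it and 42.7% ± 1.15 at 200 bp past it. A dip was not particular to them. The 242 members at 50 to 299 bp had 43.6% at 125 bp before the summit, 38.9% at it and 45.4% at 125 bp past it, with 37.8% at 225 bp before it. Summits upstream of a single promoter had 40.8% at 600 bp before, 33.4% at the summit and 45.3% at 200 bp past it. The summits within 50 bp of the start had a mean of 45% ± 0.719 (SEM, n = 166) at the summit, and their lowest values, 34.3% ± 1.01, lay 175 bp before it, upstream of the start.

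**Figure D4:**
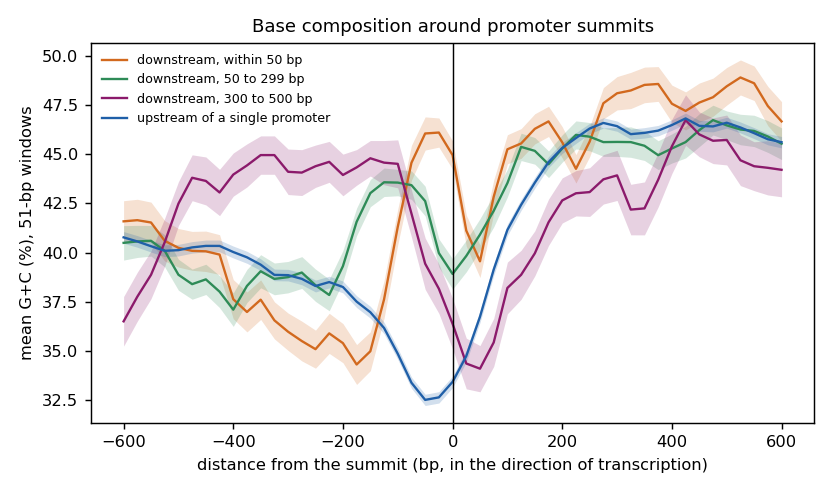
Mean G+C content (vertical axis, percent, 51-bp windows) against the distance from the summit (horizontal axis, bp, in the direction of transcription) for downstream summits in 3 distance groups and for summits upstream of a single promoter; bands are 1 SEM over summits. The curve of the 97 summits at 300 to 500 bp falls to 34.1% just past the summit, and that of the 166 summits within 50 bp is lowest on the upstream side of the start.

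A/T words common at the other summits were counted at the members, as a description: the words were picked on the other summits, which favours a higher share there. The 10 best words at the other 7665 IDR summits, ranked on those summits without the members, consisted of A and T alone. Each was within 100 bp of 11.4 to 15.3% of the other summits, and of 4.95 to 12.3% of the downstream summits. In windows 500 bp from the downstream summits they occurred in 4.16 to 6.93%.

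Core promoter motifs were searched on both strands within 100 bp of the summit, and a match is only a match of letters. DRE was searched as TATCGATA, Motif 1 as GGTCACACT and the TATA box as TATAAA; Ohler motifs 6 and 7, longer core promoter consensus sequences, are given by name. DRE was found at 32 downstream summits (6.34%, 4.37 to 8.83%), against 5.05% upstream, 10.6% between divergent starts, 0.412% away from promoters and 2.80% of all IDR summits. Motif 1 was found at 21 (4.16%, 2.59 to 6.29%), against 2.90% upstream and 1.41% of all. Ohler motif 7 was found at 39 (7.72%, 5.55 to 10.4%), against 5.68% upstream and 4.16% of all, and Ohler motif 6 at 3. TATAAA was found at 119 (23.6%, 19.9 to 27.5%), against 38.5% upstream and also 38.5% of all. The windows 500 bp from the downstream summits held DRE in 1.98% on the upstream side and 0.396% on the downstream side, and TATAAA in 28.9 and 13.9%. Within 50 bp of the summit DRE was at 2.18% and Motif 1 at 2.38%, and among members above the list's median signal at 3.45 and 1.72%.

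These shares also moved with distance, and within 99 bp of the start the intervals of the 2 sides overlapped for DRE, Motif 1 and Ohler motif 7. Within 99 bp of the start, DRE was at 31 of 263 downstream summits (11.8%, 8.15 to 16.3%) and at 54 of 451 upstream ones (12%, 9.12 to 15.3%). Motif 1 was at 7.60% (4.71 to 11.5%) and 7.76% (5.46 to 10.6%), and Ohler motif 7 at 12.2% (8.47 to 16.7%) and 13.3% (10.3 to 16.8%). From 100 to 299 bp, DRE was at none of 145 downstream summits, which allows up to 2.51% by the exact interval (2.07% by 3 counts), and at 3.11% (2.09 to 4.44%) of 932 upstream ones. TATAAA at 100 to 299 bp was at 20.7% (14.4 to 28.2%) downstream and at 44.2% (41.0 to 47.5%) upstream, with intervals far apart, while within 99 bp it was at 22.8% (17.9 to 28.4%) and 27.3% (23.2 to 31.6%). TATAAA is made of A and T alone, and no TATAAA comparison here was adjusted for base composition. The median G+C at 100 to 199 and 200 to 299 bp was 40.3 and 39.8% downstream and 32.8 and 31.3% upstream.

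**Figure D5:**
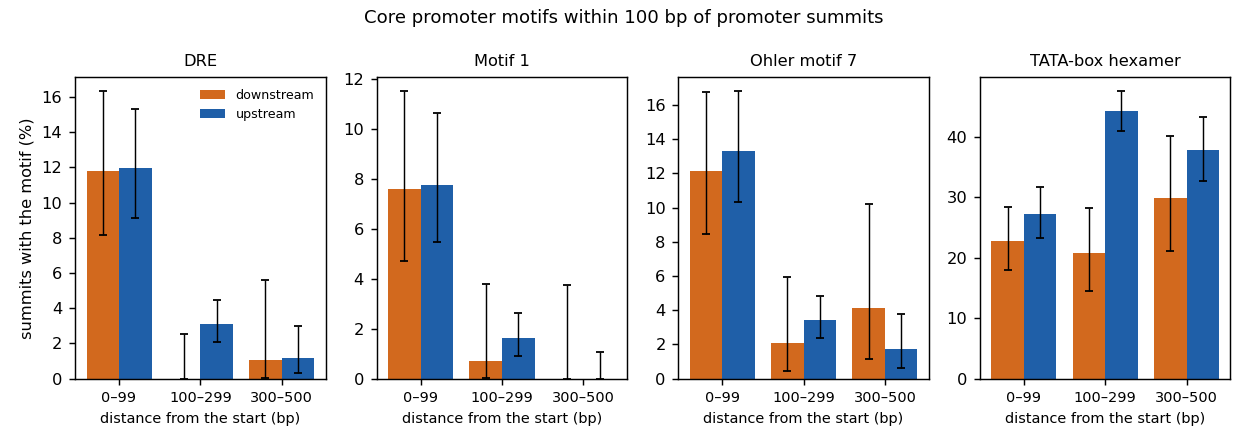
Share of summits with a core promoter motif within 100 bp (vertical axes, percent, a scale for each motif) downstream (orange) and upstream (blue) of the start, by distance from the start (horizontal axis, bp); bars are exact 95% intervals. DRE, Motif 1 and Ohler motif 7 are most frequent within 99 bp on both sides with overlapping intervals, and the TATA-box hexamer is lower downstream at 100 to 299 bp (20.7 against 44.2%). The hexamer shares were not adjusted for G+C content, which also differs there.

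Most DRE and Motif 1 matches lay between the summit and the start or just upstream of the start. Of 35 DRE matches at 32 members, 32 were on the upstream side of the summit, with a median of 57 bp before the summit and a median of 25 bp upstream of the TSS. Members lie at or downstream of the TSS by the rule, which favours the upstream side of the summit for a motif near the TSS. Motif positions were not measured at upstream summits. The 22 Motif 1 matches were at a median of 33.5 bp before the summit and 3 bp downstream of the TSS, and 20 of them were within 50 bp of the TSS. The following sequences show the motif in capitals at the 5 DRE members with the highest signal, in the direction of transcription; they were chosen after the values were seen.
cnc (chr3R:23190146-23190174, minus strand): tacagtgcacTATCGATAtggaggaccca
CG2200 (chrX:13094287-13094315, plus strand): cgtgagtttccTATCGATAtcgaagaact
mTerf5 (chr3R:18223674-18223702, minus strand): ttgccggccgTATCGATAgttgattacct
Rab8 (chr3L:19871078-19871106, minus strand): tacgataagcTATCGATAgacgacggcgc
Rack1 (chr2L:7827303-7827331, minus strand): aaattcaaacTATCGATAgttttgtcctg

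In cnc, which encodes the fly homologue of Nrf2, the motif was 258 bp downstream of the TSS and its summit 333 bp downstream; it was the DRE member in the 300 to 500 bp band. At the other 4 of these, CG2200, mTerf5, Rab8 and Rack1, the motif centre was between 72 bp upstream and 2 bp downstream of the TSS. For Motif 1 the members tun (signal 408) and uri (390) are not shown, although only cmb (951) had a higher signal. Shown are cmb, Rcc1, WASp, Rab14 and Meltrin, again chosen after the values were seen.
cmb (chr3L:13442542-13442570, plus strand): gtccgctgccAGTGTGACCataacttggt
Rcc1 (chr3L:5932613-5932641, minus strand): ctgaaattggAGTGTGACCtcgctaatag
WASp (chr3R:28832001-28832029, minus strand): tttttcggtcGGTCACACTggcagcaatt
Rab14 (chr2L:14355109-14355137, plus strand): ctatcgcggcAGTGTGACCcttggcttgc
Meltrin (chr3R:14697320-14697348, minus strand): cgatacgtctGGTCACACTgaaaacacgt

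The Motif 1 match stood on the sense strand at WASp and Meltrin and reversed at cmb, Rcc1 and Rab14. Members with DRE had a median signal of 200 (172 to 234) and lay at a median of 18.5 bp, members with Motif 1 had 202 (179 to 242) at 33 bp, and members with neither had 228 (213 to 247) at 106 bp. The starts of downstream summits themselves, within 100 bp of the TSS, held DRE in 11.5% (8.80 to 14.6%), against 6.41% of starts with an upstream summit and 6.44% of all protein-coding starts. Motif 1 was at 7.44% (5.30 to 10.1%) of these starts, against 5.27 and 4.41%. TATAAA in the position of a TATA box, 15 to 40 bp upstream of the TSS on the same strand, was at 3.42% of them, against 3.42% of starts with an upstream summit and 6.86% of all starts. The initiator TCAGT within 10 bp of the TSS on the same strand was at 12.3% (9.52 to 15.5%) of them, against 16.1 and 13.1%.

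The replicates matched less often at downstream summits than elsewhere, and most of the missing matches were in replicate 2. A summit within 100 bp was found in both replicates for 415 of the 505 (82.2%, 78.6 to 85.4%), against 88.0% (86.4 to 89.5%) of upstream summits and 91.0% of all IDR summits. Replicate 3 matched 491 (97.2%, 95.4 to 98.5%) and replicate 2 matched 427 (84.6%, 81.1 to 87.6%). For upstream summits these shares were 95 and 92.8%. Of the members, 76 were matched in replicate 3 alone, 12 in replicate 2 alone and 2 in neither.

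Where both replicates had a match, both of their summits were downstream of the same TSS for 359 of 415 members (86.5%, 82.8 to 89.6%). The share was 78 of 131 (59.5%, 50.6 to 68.0%) within 50 bp of the start. At 300 to 500 bp it was 88 of 88, a value that the matching rule fixed in advance. A replicate summit within 100 bp of a member at 100 bp or more cannot lie upstream of the TSS. With unmatched members counted in, 359 were 71.1% of the 505 (66.9 to 75%) and 78 were 47.0% of the 166. The 88 were 90.7% of the 97, which is only the share matched in both replicates there. The median distance between the summits of the replicates was 28 bp (22 to 32) at downstream summits and 24 bp (22 to 25) at upstream ones. At Pc, for example, whose protein is the chromodomain subunit of a Polycomb complex, the IDR summit was 1 bp downstream of the TSS, that of replicate 2 was 26 bp upstream and that of replicate 3 was 13 bp downstream.

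Signal at downstream summits ranked higher in replicate 3 than in replicate 2. The percentile within the full list of 30000 peaks was 3.13 points higher in replicate 3 (2.12 to 4.06, median over 415 matched members), against 0.103 points for upstream summits and −1.43 for divergent ones. Below 50 bp the difference was present on both sides, with 3.28 points downstream and 3.75 upstream at 0 to 24 bp, and 6.87 downstream and 3.92 upstream at 25 to 49 bp. At 50 to 99 bp it was 4.61 (1.85 to 10.1) downstream and −0.0033 (−0.717 to 0.737) upstream. Among the strongest 8170 peaks of each replicate, 652 of 3081 promoter summits were downstream in replicate 3 (21.2%, 19.7 to 22.6%) and 418 of 3112 in replicate 2 (13.4%, 12.3 to 14.7%). The signal in the IDR list was close to the sum of the replicates' signals, with a median ratio of 1.00 over the matched members. Replicate 3 had the larger part of it, with a median signal 2.57 times that of replicate 2 (2.43 to 2.69) at the members and 2.11 times over all IDR summits.

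Genes of the cytoplasmic ribosome had downstream summits at 13 of 93 genes (14%, 7.66 to 22.7%), where all protein-coding genes had 3.59%. Promoter summits on some side were at 69 of the 93, so the downstream share among genes with a promoter summit was 18.8% (10.4 to 30.1%), near the 17.9% of all 2811 such genes. Both bases also count genes with summits only between divergent starts, which the rule bars from being members. The downstream summits were close to the start and weak: their distances were 0 to 107 bp with a median of 30 bp, and their signals 151 to 301 with a median of 189. The highest were at RpL3 of the large subunit (25 bp, 301), RpS7 of the small subunit (0 bp, 286) and RpL35A (43 bp, 270). RpL3 had 28.1 in replicate 2 and 227 in replicate 3, RpL35A had 56.0 and 211, and RpS7 had 237 in replicate 3 and no summit within 100 bp in replicate 2. The others were RpL9, RpS30, RpS15, RpL39, RpL7A, RpL12, RpS24, RpL29, RpS2 and RpS9. Of the 13, 11 were in the 5′ UTR and 2 in an intron, and 7 had TCTTT, part of the polypyrimidine initiator of such genes, within 10 bp of the TSS on the same strand. All starts of downstream summits had it in 3.22%, those of upstream summits in 4.07% and all protein-coding starts in 2.47%.

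At ribosomal protein genes the replicates were far apart. All 13 were matched in replicate 3 and 10 in replicate 2, and in 9 of those 10 the percentile was higher in replicate 3, with a median difference of 14.7 points. Of the 405 other members matched in both replicates, 280 were also higher in replicate 3, with a median difference of 2.95 points. Members of all kinds at 0 to 24 and 25 to 49 bp had median differences of 3.28 and 6.87 points. Among the strongest 8170 peaks of replicate 3 alone, 27 of the 93 genes had a downstream summit (29%, 20.1 to 39.4%), and among those of replicate 2 alone 7 had one (7.53%, 3.08 to 14.9%). With only the IDR summits above the median signal 1 of the 93 remained (1.08%), and 6 (6.45%) had the summit downstream in both replicates. The part of the replicates' depth in this gap was not tested. With the IDR list and only the 5′-most start of each gene, 27 of the 93 genes (29%) had a downstream summit.

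Polycomb group genes had downstream summits at 5 of 21 genes (23.8%, 8.22 to 47.2%), beside 3.59% of all genes. Promoter summits on some side were at 10 of the 21, of which the 5 are 50% (18.7 to 81.3%), beside 17.9% of all genes with one. That 17.9% has in its base genes with summits only between divergent starts, which cannot be members. Besides ph-p and Pc, the Polycomb members were jing (32 bp, signal 900), Psc, a subunit of the same complex as ph-p (167 bp, 448), and Su(z)12, a subunit of the complex that methylates histone H3 (96 bp, 394). At jing replicate 2 had 219 and replicate 3 had 674, both 32 to 39 bp downstream of the TSS. At Psc the values were 56.0 and 407, and at Su(z)12 they were 196 and 190. The summits of ph-p, jing, Psc and Su(z)12 were downstream in both replicates, for ph-p and Psc by the matching rule, and that of Pc was not.

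Trithorax group genes had them at 3 of 28 (10.7%, 2.27 to 28.2%, beside 3.59% of all genes), namely Trl, which encodes the GAGA factor (139 bp, 814), lolal, a BTB-domain partner of it (92 bp, 422), and Mnn1, the menin gene (33 bp, 220). Among architectural and promoter-binding factors, 3 of 24 (12.5%, 2.66 to 32.4%) had one, with the 3.59% of all genes inside the interval: Trl again, Dref (46 bp, 462) and the insulator protein gene CTCF (124 bp, 343). Dref had 139 in replicate 2 at 13 bp and 324 in replicate 3 at 56 bp, and no DRE within 100 bp of the summit. At CTCF the summit was 124 bp downstream in both replicates, with 85.5 and 241.

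Heat shock and chaperone genes had downstream summits at 4 of 25 (16%, 4.54 to 36.1%), beside 3.59% of all genes. Promoter summits on some side were at 10 of the 25, of which the 4 are 40% (12.2 to 73.8%), beside 17.9% on the base described for the Polycomb list. They were Hsp22 (498 bp, 401), the constitutive Hsc70-4 (54 bp, 354), Hsp23 (8 bp, 201) and Hsp110 (106 bp, 154). At Hsc70-4 a stronger IDR summit of 809 lay 160 bp upstream of the same TSS. Hsp23 had no summit within 100 bp in replicate 2 and 148 in replicate 3.

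Other lists had few members, and the 3.59% of all genes lay inside the interval of each. Cell death genes had 3 of 27, namely puc, p53 (16 bp, 240) and the caspase inhibitor gene Diap1 (459 bp, 161). Rab GTPases had 3 of 36, namely Rab8 (34 bp, 415), Rab14 (41 bp, 242) and Rab6 (102 bp, 160). Translation factors had 3 of 54, namely the eIF3 subunit genes eIF3h (273 bp, 465) and eIF3f1 (2 bp, 171) and eIF4G2 (45 bp, 204). Genes of the ecdysone cascade had 2 of 33, Eip75B and Eip63E (54 bp, 197). Mediator had 2 of 29, MED26 (403 bp, 173) and MED6 (29 bp, 157), and autophagy had 2 of 20, Atg4a (79 bp, 254) and Atg13 (157 bp, 213). Cell cycle and replication had 1 of 41, Dp, the partner of E2F (435 bp, 817), and splicing factors 1 of 37, the SR protein gene B52 (5 bp, 162).

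No downstream summit was found in 9 of the lists. The largest were chemosensory receptors with 0 of 179 genes, where the exact interval reaches 2.04%, cuticle proteins with 0 of 99 (up to 3.66%), oxidative phosphorylation with 0 of 89 (up to 4.06%) and mitochondrial ribosomal proteins with 0 of 73 (up to 4.93%). A limit of 3 counts would stand at 1.68, 3.03, 3.37 and 4.11%. The exact limits of the last 3 lists lie above the 3.59% of all protein-coding genes, so on that base a share like that of all genes is within their counting error. Among genes with a promoter summit on some side, the limit was 16.1% for mitochondrial ribosomal proteins (0 of 21) and 16.8% for oxidative phosphorylation (0 of 20). Both lie below the 17.9% of all such genes. This base also counts genes with summits only between divergent starts, which the rule bars from being members. Upstream of a single promoter, only 4 of the 21 and 7 of the 20 genes had a summit. These limits therefore cannot be read as a lack of downstream summits. For the other empty lists that had genes with a promoter summit, the limits lie above 17.9%. The others were the proteasome (48 genes), RNA polymerase II and general transcription factors (41), aminoacyl-tRNA synthetases (35), nucleoporins (25) and Hox genes (8). These groups were not all without promoter summits: 21 of the mitochondrial ribosomal protein genes and 20 of the oxidative phosphorylation genes had a summit within 500 bp of a start on some side, against 1 of the chemosensory receptor genes and none of the Hox genes.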

How the data were processed

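Deposited on dm6 were narrowPeak lists, one for each replicate and an IDR thresholded one derived from both, per the file headers and their notes. Peak signal is as deposited by the authors, with no scale named in those notes, and served only to describe, rank or filter peaks within a list. The −log10 q-value deposited by the authors was the same for all IDR peaks and was not used to rank. How peaks were called, with which tool and with what IDR cutoff, is not given in the sources used here. Summits were assigned to protein-coding starts of Ensembl release 115 (BDGP6.54, the same sequence as dm6); sequence came from the RefSeq copy of that assembly, and its starts gave the same classes. In 2 ties between an upstream and a downstream start the downstream one was taken. Python 3.11.15, numpy 2.4.6 and scipy 1.17.1 were used. Shares have exact Clopper-Pearson 95% intervals and medians exact order-statistic intervals; no p-value was computed, since 1 group allows no contrast over samples and summits are not replicates. The assignment was tested on simulated summits. Replicate summits were matched within 100 bp, and motifs counted within 100 bp of the summit. Genes named are the 20 strongest members matched in both replicates, up to 3 members with the highest signal in each of 22 gene lists (all members for the ribosomal and Polycomb lists and where a list had few), and the 3 members or neighbours at each limit; other examples are marked where they appear. Of the symbols written into the lists, 12 had no match in the annotation. The members, lists and rules were chosen with earlier results of these data known. A set of 12 alternative settings was tried, and 1 more was added after seeing the data.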

Additional observations from a re-analysis of the deposited data

How the results depend on the processing

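Over all results and alternatives, 60 values stayed within the main value's 95% interval and 62 moved outside it. RefSeq starts gave the main values throughout, so they add no independent check, and their values are counted among the 60. With a TSS window of 200 bp the median distance was 53 bp, the signal percentile 24.9, the 5′ UTR share 87.4% and the share downstream in both replicates 64.7%. With a window of 1000 bp the downstream share was 22.9%, the distance 345 bp, the percentile 39.3, the 5′ UTR share 45.5%, G+C 39.3%, the share in both replicates 78.1% and TATAAA 28.0%. The IDR peaks above the median signal gave a downstream share of 11.5%, 137 bp, a percentile of 38.6 within them, 62.1% in 5′ UTRs, G+C 37.3%, 89.7% in both replicates, TATAAA 32.8% and ribosomal protein genes 1.08%. With only the 5′-most start of each gene the downstream share was 23.6%, the percentile 36.2, G+C 39.6% and ribosomal protein genes 29%. Keeping summits between divergent starts gave a share of 19.4% and G+C of 39.8%. Without replicate 2 or without replicate 3, using the strongest 8170 peaks of the other, the downstream share ranged from 13.4 to 21.2%, the distance from 74 to 120.5 bp, the 5′ UTR share from 66.5 to 76.4%, G+C from 39.3 to 42.8% and ribosomal protein genes from 7.53 to 29%; the signal percentile ranged from 28.9 to 34.2 and TATAAA from 21.8 to 23.5%. Within 50 bp of the summit TATAAA was at 12.7%. A window of 1000 bp put DRE at 3.99%, Motif 1 at 2.46% and peaks that cover the TSS at 37.9%. Matching replicates within 50 or 200 bp put the share downstream in both at 57.8 or 76.6%. Members downstream in both replicates, a setting added after seeing the data, had a distance of 118 bp, a percentile of 43.0, a 5′ UTR share of 66.0%, G+C of 39.8% and ribosomal protein genes at 6.45%. No paired analysis was possible because there is 1 group. Unknown depth and 2 replicates limit all values.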
